A study of Homo sapiens with 4 samples.

Results

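The BCL2 family decides whether a stressed cell opens its outer mitochondrial membrane and dies by apoptosis. Its guardians hold the effectors BAX and BAK1 in check, the effectors form pores that let cytochrome c out, and the BH3-only proteins sense damage and either block guardians or activate effectors. The family was followed here through 10 listed genes, namely the guardians BCL2, BCL2L1 (BCL-XL), MCL1 and BCL2L2 (BCL-W), the effectors BAX and BAK1, and the BH3-only genes BID, BCL2L11 (BIM), BBC3 (PUMA) and PMAIP1 (NOXA). Every probe set listed under exactly 1 of these symbols was taken. This gave 31 probe sets for 9 genes, out of 41091 probe sets on the array that carry exactly 1 symbol, for 19775 genes. BBC3 had no probe set under its symbol alone, so its transcript level was not analysed here. The 9 genes all passed the signal threshold described below, as did 28 of the 31 probe sets.

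Arrays were hybridised with RNA from SNU638, a human gastric cancer line long kept in culture, carrying an shRNA against ACTL6A (sh-ACTL6A, 2 arrays) or a scrambled shRNA (scramble, 2 arrays). The labels describe lentiviral delivery from the pLKO.1 vector followed by puromycin selection. Whether 1 or 2 hairpins stand behind the sh-ACTL6A pair is not stated, nor whether replicates were grown as separate cultures. The p-values thus reflect no more than the spread of these 4 arrays, and that spread may be technical. ACTL6A is an actin-related subunit of chromatin remodelling complexes. The study asked which transcripts depend on it, and in other assays compared apoptosis with ferroptosis as the form of death after its loss.

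ACTL6A log2 signal was 10.16 and 10.32 in sh-ACTL6A, against 11.92 and 11.82 in scramble. It fell by 1.63 on the log2 scale (SE 0.14, limma adjusted p = 0.0408), a change of -67.7%, so the knockdown was partial. The call was lost if either scramble array was left out (limma adjusted p = 0.9996 for replicate 1 and 0.567 for replicate 2), and in 5 of the alternative settings with all arrays. ACTL6A was the only one of 12286 genes past an adjusted p of 0.05. That is 0.00814% of genes for either direction. The count depended on which arrays were used. With 1 sh-ACTL6A array left out, the spread within groups comes from the scramble pair alone. The lone array's own deviation then counts as a group difference, so calls from such a fit do not show that genes changed.

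All 5 epithelial marker genes passed the signal threshold, whereas none of the leukocyte marker probe sets did (0 of 7). The keratin KRT18 differed by -0.34 ± 0.08 (SE, limma adjusted p = 0.595) with no overlap. KRT8, KRT19 and EPCAM differed by -0.24, -0.12 and -0.06 with overlap. CDH1, the other epithelial marker, differed upward by 0.02 with overlap. Of the fibroblast and endothelial markers, 3 of 5 genes passed the signal threshold, and on their brightest probe sets PECAM1, COL1A1 and DCN differed by 0.15, -0.08 and -0.08 with overlap. A further COL1A1 probe set read 8.75 and 8.54 in sh-ACTL6A, against 7.29 and 7.37 in scramble, a difference of 1.32 ± 0.21 (SE, adjusted p = 0.960 in limma over every probe set), and another differed by 0.09. The arrays held RNA of a cultured cell line, and the source of the fibroblast and endothelial marker signal was not tested.

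None of the 9 members passed the threshold (limma, 0 of 9, adjusted p between 0.918 and 0.983). None reached an unadjusted p of 0.05 either, by limma or by the methods' t-test, where 5.5% of all genes did so by limma. Of the 9 genes, 5 differed upward and 4 downward, where 51.9% of all genes differed upward, with a median difference of 0.08 against 0.01 over all genes tested. In bulk RNA a shift in all cells and a larger shift in some of them cannot be told apart. The median size of the difference, sign aside, was 0.15 in the family and 0.14 over all genes. The groups did not overlap for 4 of the 9 members, against 34.6% of all genes. BCL2L11 and PMAIP1 lay above scramble, as 19.3% of genes did, and BCL2 and BID below it, as 15.4% did.

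**Figure D1:**
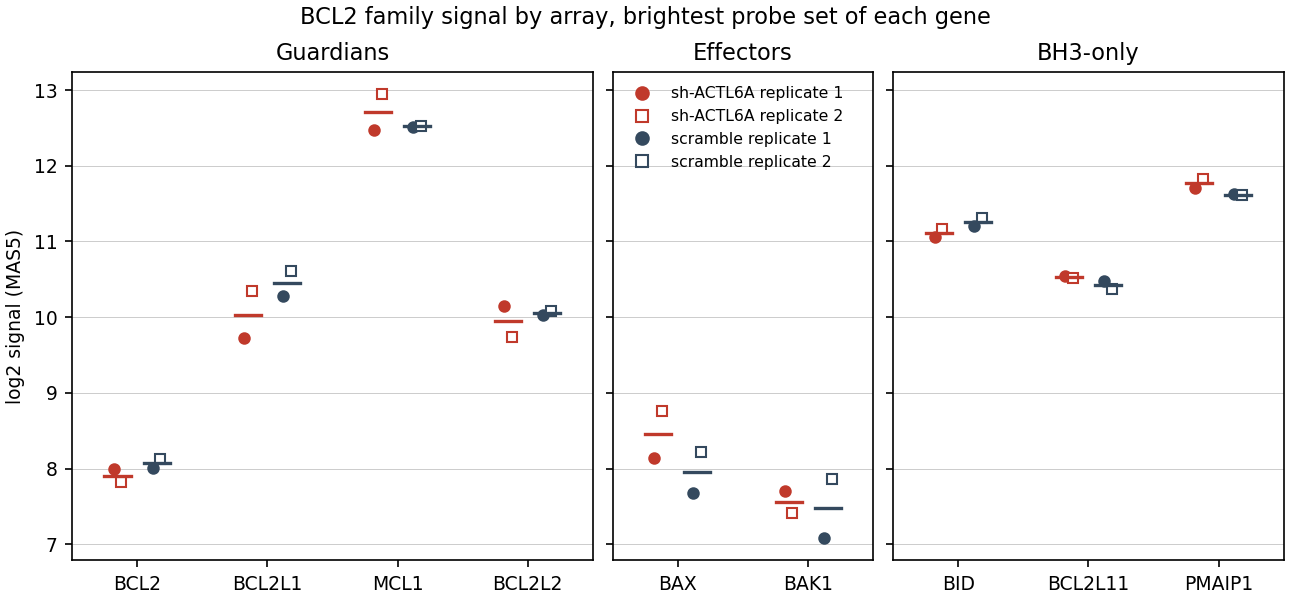
Log2 signal (vertical axis) of the brightest probe set of each of 9 BCL2 family genes (horizontal axis), by role. Red marks are sh-ACTL6A and dark marks scramble arrays, circles are replicate 1, squares replicate 2, and bars are means (n = 2). BCL2L1 had the lowest group difference (-0.41) and BAX the highest (0.50), and the groups overlapped for both. Levels of different genes cannot be compared, as each probe set binds with its own strength.

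Among the guardians, BCL2L1 had the largest difference on the brightest probe sets. Once every probe set of each gene was averaged, it was -0.11, smaller in size than BCL2 at -0.18 and MCL1 at 0.17. BCL2L1 encodes BCL-XL, which holds BAX and BAK1 inactive at mitochondria in many epithelial cancers. Its brightest probe set (212312_at) read 9.73 and 10.34 in sh-ACTL6A, against 10.28 and 10.61 in scramble. Only sh-ACTL6A replicate 1 lay below both scramble arrays. The difference was -0.41 ± 0.23 (SE, limma adjusted p = 0.918), a fold of 0.752 with a 95% confidence interval of 0.521 to 1.08. Leaving out sh-ACTL6A replicate 2 gave -0.72, which passed (limma adjusted p = 0.0386), in a fit that called 1.96% of genes lower and took the lone array to vary like the scramble pair. With replicate 1 left out instead, the difference was -0.11 (limma adjusted p = 0.833).

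MCL1 encodes a short-lived guardian that is lost within hours when its synthesis stops. Its brightest probe set (200798_x_at) read 12.47 and 12.94 in sh-ACTL6A, against 12.51 and 12.53 in scramble. The sh-ACTL6A arrays lay on either side of the scramble pair. The difference was 0.19 ± 0.16 (SE, limma adjusted p = 0.941). Leaving out sh-ACTL6A replicate 1 gave 0.42, which passed (limma adjusted p = 0.0340), where 1.15% of genes were called higher, and leaving out replicate 2 gave -0.05. The ending of this probe set's name marks probes that can bind other transcripts. The next brightest MCL1 probe set (200797_s_at) read 12.41 and 12.73 in sh-ACTL6A, against 12.50 and 12.59 in scramble, a difference of 0.02 ± 0.14 (SE).

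BCL2, the founding guardian, read 7.9997 and 7.82 in sh-ACTL6A, against 8.01 and 8.13 in scramble on its brightest probe set (203685_at). The groups did not overlap, although replicate 1 of each read almost the same. The difference was -0.16 ± 0.21 (SE, limma adjusted p = 0.962). Averaged with the other BCL2 probe set above the signal threshold, it turned to 0.16. BCL2L2, whose product BCL-W resembles BCL-XL, read 10.15 and 9.74 in sh-ACTL6A, against 10.03 and 10.08 in scramble. Its sh-ACTL6A arrays lay on either side of the scramble pair, and the difference was -0.10 ± 0.18 (SE).

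BAX moves from the cytosol to mitochondria on activation. On the brightest probe sets it had the highest difference of the 9 members, which 7.94% of all genes matched or exceeded in size. Its brighter probe set (211833_s_at) read 8.14 and 8.76 in sh-ACTL6A, against 7.67 and 8.22 in scramble. Scramble replicate 2 lay above sh-ACTL6A replicate 1, so the groups overlapped. The difference was 0.50 ± 0.28 (SE, limma adjusted p = 0.918), a fold of 1.42 with a 95% confidence interval of 0.897 to 2.24. It was 0.82 without sh-ACTL6A replicate 1 and 0.78 without scramble replicate 2, but 0.23 without scramble replicate 1 and 0.19 without sh-ACTL6A replicate 2, where BAK1 was at 0.22. The dimmer BAX probe set (208478_s_at) read 6.86 and 6.79 in sh-ACTL6A, against 6.21 and 6.90 in scramble, a difference of 0.27 ± 0.36 (SE). BAK1, the effector that sits in the mitochondrial membrane before activation, read 7.70 and 7.42 in sh-ACTL6A, against 7.08 and 7.86 in scramble. Both sh-ACTL6A values lay within the scramble range.

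The brightest probe sets of the BH3-only genes varied little within a group, with SDs between 0.0065 and 0.089 (n = 2). BID, which caspase-8 cleaves to link death receptors to mitochondria, read 11.05 and 11.16 in sh-ACTL6A, against 11.20 and 11.31 in scramble on its brightest probe set (211725_s_at). Both sh-ACTL6A arrays were the lower ones, with a difference of -0.15 ± 0.13 (SE, limma adjusted p = 0.941). The other BID probe sets differed by -0.01 (227143_s_at) and -0.03 (204493_at), with overlapping groups.

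BCL2L11 encodes BIM, which binds all guardians and activates the effectors. Its brightest probe set (225606_at) read 10.54 and 10.52 in sh-ACTL6A, against 10.48 and 10.37 in scramble. Both sh-ACTL6A arrays were the higher ones, by a difference of 0.10 ± 0.14 (SE, limma adjusted p = 0.963). The 7 BCL2L11 probe sets did not move alike. Of these, 5 lay above both scramble arrays, 1 lay below both and 1 overlapped, where 18.4% of all single-symbol probe sets above the signal threshold lay above and 15% below. The probe set with the highest difference (1558143_a_at) read 9.37 and 9.69 in sh-ACTL6A, against 8.76 and 9.08 in scramble. It differed by 0.61 ± 0.19 (SE). In limma over every probe set its unadjusted p was 0.0163 and its adjusted p 0.960. Within each group, replicate 2 of this probe set exceeded replicate 1 by 0.32. The one below (222343_at) read 6.22 and 6.90 in sh-ACTL6A, against 6.94 and 7.02 in scramble, a difference of -0.42 ± 0.35 (SE).

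PMAIP1 encodes NOXA, a BH3-only protein that binds chiefly MCL1 and promotes its degradation. Its brighter probe set (204285_s_at) read 11.70 and 11.83 in sh-ACTL6A, against 11.62 and 11.61 in scramble. The other (204286_s_at) read 11.07 and 11.20 in sh-ACTL6A, against 10.93 and 10.79 in scramble. On both, each sh-ACTL6A array exceeded each scramble array. The differences were 0.15 ± 0.12 (SE, limma adjusted p = 0.941 over genes) and 0.27 ± 0.13 (SE, adjusted p = 0.960 in limma over every probe set). For the brighter one, the 95% confidence interval of the fold ran from 0.911 to 1.35.

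**Figure D2:**
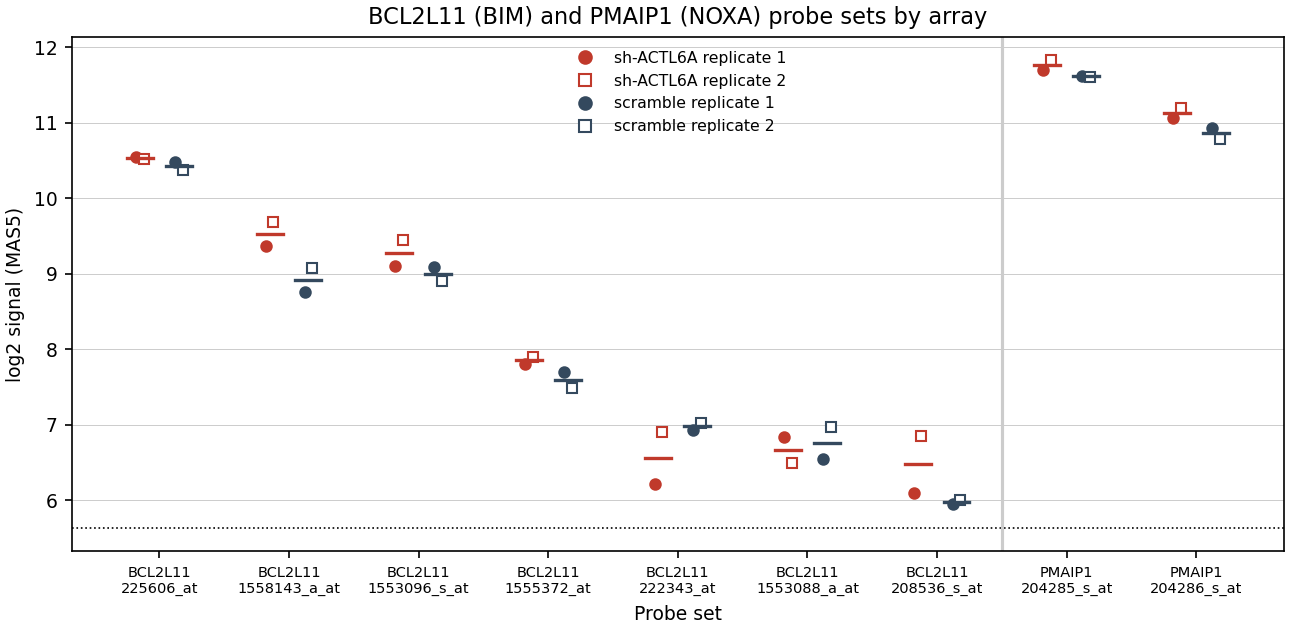
Log2 signal (vertical axis) of each BCL2L11 and PMAIP1 probe set (horizontal axis, from bright to dim within a gene), with red marks for sh-ACTL6A, dark marks for scramble, circles for replicate 1, squares for replicate 2 and bars for means (n = 2). The dotted line is the signal threshold of 5.63. Both PMAIP1 probe sets and 5 of 7 BCL2L11 probe sets have both red marks above both dark ones.

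Over all 31 member probe sets, 0 passed an adjusted p of 0.05 (limma, adjusted p between 0.960 and 0.998) and 1, the BCL2L11 probe set above, had an unadjusted p under 0.05, against 5.01% of all probe sets. Of the 28 above the signal threshold, 18 differed upward, where 52.3% of all such probe sets did, 7 lay above both scramble arrays, as 18.4% of all such probe sets did, and 3 below both, as 15% did. All 7 belonged to BCL2L11 and PMAIP1. None of the 13 guardian and 3 effector probe sets did so, while 1 guardian probe set lay below. Probe sets of a gene share its RNA and are not independent. The 6 MCL1 probe sets all differed upward, by 0.02 to 0.38, yet each overlapped between groups. On all 6, sh-ACTL6A replicate 2 was the highest array, and on 4 of them sh-ACTL6A replicate 1 was the lowest. Both BAX probe sets differed upward and all 3 BID probe sets downward, while BCL2 and BCL2L1 probe sets had both signs. The widest range was that of BCL2, whose dim probe sets gave -0.95 ± 0.82 (203684_s_at) and -0.08 ± 0.58 (207005_s_at, SE), both below the signal threshold.

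**Figure D3:**
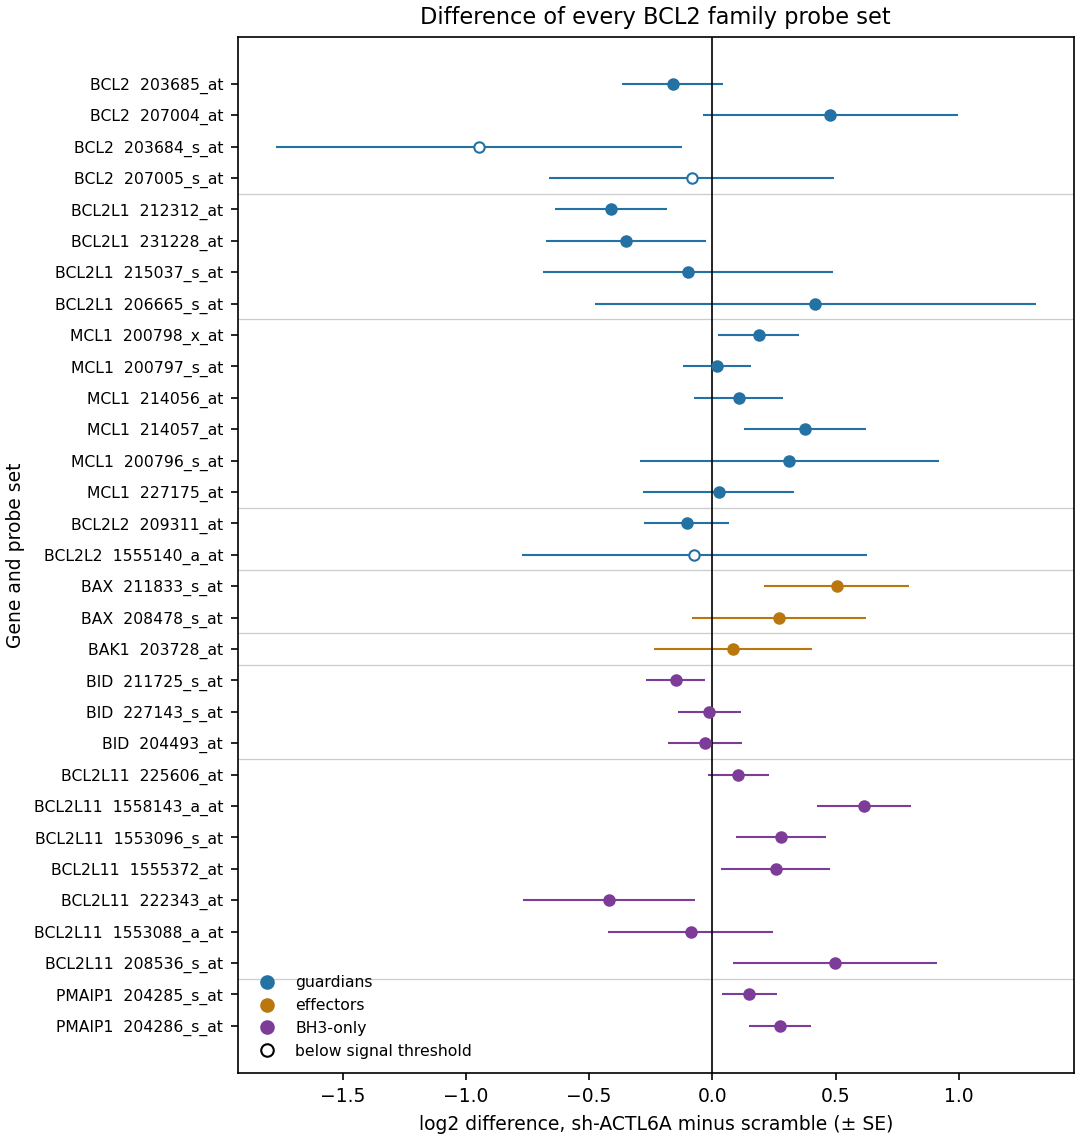
Log2 difference (sh-ACTL6A minus scramble, horizontal axis) of each of 31 BCL2 family probe sets (vertical axis, bright to dim within a gene), with bars of 1 SE from limma over all probe sets. Colours give the role and open circles lie below the signal threshold. Differences ran between -0.95 and 0.61. The widest bar was that of a BCL2L1 probe set above the signal threshold (206665_s_at, SE 0.89). Next came a BCL2 probe set below it (203684_s_at, SE 0.82).

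The balance of roles was described on each array as the mean log2 signal of the 4 guardians minus that of the 2 effectors, each gene by its brightest probe set. Relative to the scramble mean, the guardian minus effector balance was -0.39 and -0.44 in sh-ACTL6A, against 0.27 and -0.27 in scramble. Both sh-ACTL6A arrays lay below both scramble arrays. The group difference was -0.42 with a pooled SD of 0.27 (n = 2 per group). The scramble arrays alone lay further apart than the group means. Once every probe set of each gene was averaged, the group difference was -0.29, and with those above the signal threshold -0.21. No p is given for a score over chosen members. Without scramble replicate 1 the difference was -0.15 and without scramble replicate 2 it was -0.69. Its size thus rested on which scramble array was used. Scramble replicate 1 was the lowest array on both BAX probe sets and on BAK1. On this array the 3′ ACTB control exceeded the 5′ control the most, by 1.63 in log2 signal. The part of RNA quality in this balance was not tested. The effector mean alone was 0.21 and 0.38 in sh-ACTL6A, against -0.33 and 0.33 in scramble, and overlapped. The guardian mean was -0.183 and -0.0609 in sh-ACTL6A, against -0.0636 and 0.0636 in scramble, and also overlapped. BAX (0.50), 1 of 2 effectors, and BCL2L1 (-0.41), 1 of 4 guardians, had the largest differences entering this balance. The groups overlapped for both genes.

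The guardian minus BH3-only balance, over BID, BCL2L11 and PMAIP1, was -0.18 and -0.13 in sh-ACTL6A, against -0.07 and 0.07 in scramble. Both sh-ACTL6A arrays were the lower ones, with a group difference of -0.16 and a pooled SD of 0.07 (n = 2 per group). This balance uses the same guardian mean as the first, on the same arrays, so it is not a separate observation. The guardian mean alone differed by -0.12 between the groups. With all probe sets of a gene above the signal threshold averaged, the group difference was -0.08. The BH3-only mean was 0.00 and 0.07 in sh-ACTL6A, against 0.00 and 0.00 in scramble, a group difference of 0.03 with overlap. Opposite signs within a role entered these means, since MCL1 differed upward among the guardians and BID downward among the BH3-only genes.

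**Figure D4:**
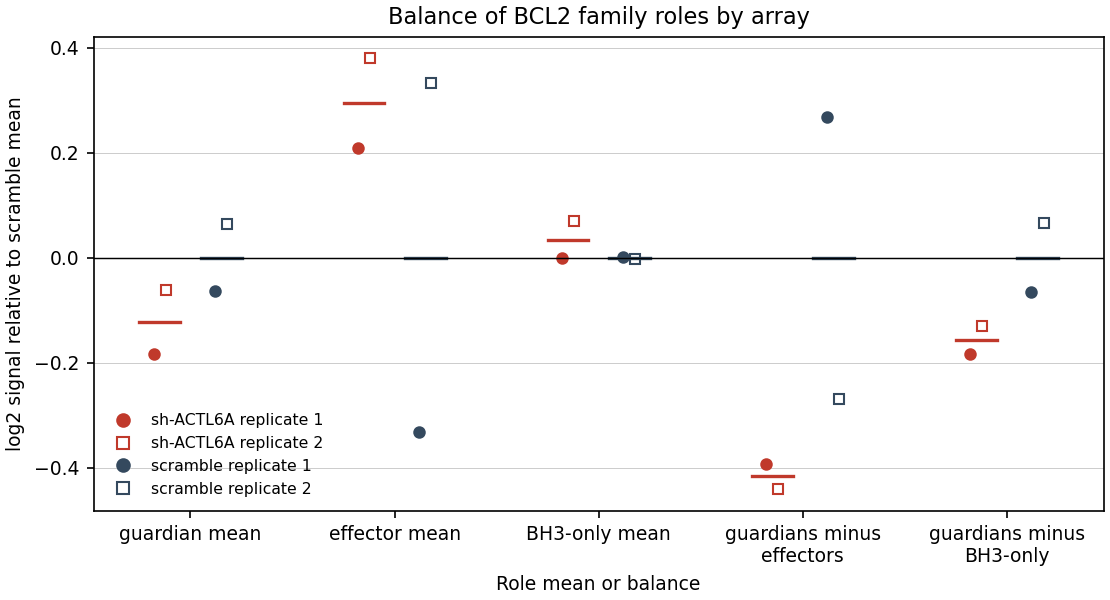
Log2 signal relative to the scramble mean (vertical axis) for the mean of each role and for 2 balances (horizontal axis), by array, with red marks for sh-ACTL6A, dark marks for scramble, circles for replicate 1, squares for replicate 2 and bars for means (n = 2). Both sh-ACTL6A arrays lie below both scramble arrays in the balances, at -0.39 and -0.44 against effectors, while the mean of each role overlaps.

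Several members varied with the replicate number in both groups. Replicate 2 exceeded replicate 1 in sh-ACTL6A and in scramble for 14 of the 28 member probe sets above the signal threshold, against 29.3% of all such probe sets. This held for all 4 BCL2L1 probe sets and 5 of the 6 MCL1 probe sets. A BCL2L1 probe set (206665_s_at) read 5.13 and 6.94 in sh-ACTL6A, against 4.49 and 6.74 in scramble. An MCL1 probe set (200796_s_at) read 7.01 and 8.31 in sh-ACTL6A, against 6.56 and 8.14 in scramble. In both, the replicates of a group lay further apart than the group means. RNA quality moved the same way, as the log2 signal of the 3′ ACTB control minus that of the 5′ control was 1.21 and 0.78 in sh-ACTL6A replicates 1 and 2, against 1.63 and 0.78 in scramble. Its part in these values was not tested. Across the 28 probe sets, which share 4 arrays, Pearson's r between the replicate differences of both groups was 0.56 and Spearman's rho 0.25. With the dim probe sets included, over all 31, r was 0.16 and rho 0.017. Over all single-symbol probe sets above the signal threshold, r was 0.11 and rho 0.13.

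**Figure D5:**
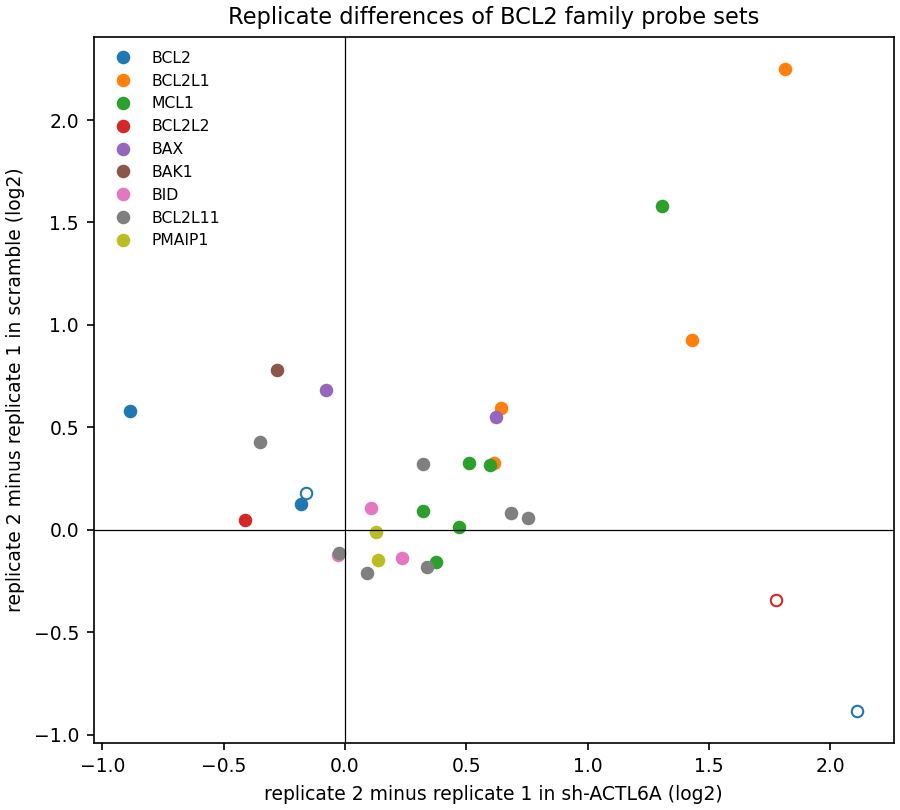
Replicate 2 minus replicate 1 (log2) in sh-ACTL6A (horizontal axis) and in scramble (vertical axis) for 31 BCL2 family probe sets, coloured by gene, with open circles below the signal threshold. The BCL2L1 probe sets and 5 of 6 MCL1 probe sets lie in the upper right part, the farthest at 1.81 and 2.25.

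The rest of the family and the pathway around it were read from lists. Of 13 further family genes, 10 were tested, with 6 differences above 0, 4 below, a median of 0.18 and none past the threshold (limma). The highest differences were those of BCL2L12, an atypical member, and BIK, a BH3-only protein of the endoplasmic reticulum. BCL2L12 read 9.84 and 10.19 in sh-ACTL6A, against 8.89 and 9.31 in scramble, a difference of 0.92 ± 0.21 (SE, limma adjusted p = 0.541). BIK read 8.98 and 9.70 in sh-ACTL6A, against 8.43 and 8.50 in scramble, a difference of 0.88 ± 0.25 (SE, limma adjusted p = 0.698). Each was measured by 1 probe set, and both sh-ACTL6A arrays were the higher ones. Both BNIP3L probe sets, for a mitophagy receptor, differed by 0.29 and 0.31 with no overlap. BCL2L15 read 6.32 and 6.24 in sh-ACTL6A, against 5.57 and 5.54 in scramble, a difference of 0.72 ± 0.36 (SE). Both scramble values lay below the signal threshold, and the gene was tested because its mean over all arrays passed it. The size of this difference is thus uncertain.

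Downstream of the pore, 17 of 20 listed genes of the apoptosome, caspases and their inhibitors were tested, 10 above 0 and 7 below, with a median of 0.01 and none past the threshold. CYCS, cytochrome c itself, read 14.30 and 14.36 in sh-ACTL6A, against 14.51 and 14.48 in scramble, a difference of -0.17 ± 0.07 (SE, limma adjusted p = 0.915). A dimmer CYCS probe set differed by 0.11 with no overlap. APAF1, the scaffold that cytochrome c assembles, differed by 0.32 on its brightest probe set, while its other probe sets differed by -0.27 and -0.28. ENDOG, a mitochondrial nuclease, differed by 0.40 and CASP2, an initiator caspase, by 0.20. Further CASP2 probe sets above the signal threshold ranged between -0.37 and 0.63, and of these only the one at 0.63 did not overlap. Of 13 death receptor genes 10 were tested, 5 in each direction, with a median of -0.02 and none past the threshold. The cytokine TNF differed by -0.60 ± 0.34 (SE), the adaptor FADD by 0.31, and the TRAIL receptors TNFRSF10B and TNFRSF10D by -0.15 and 0.18. Further TNFRSF10B probe sets had both signs, -0.16 and 0.29, each with no overlap, and the other TNFRSF10D probe set differed by 0.18 with overlap.

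Among genes that act on the family, 15 of 17 were tested, 8 above 0 and 7 below, with a median of 0.03 and none past the threshold. FBXW7, the ubiquitin ligase subunit that marks MCL1 for degradation, read 10.42 and 10.52 in sh-ACTL6A, against 9.85 and 9.75 in scramble. Its difference was 0.67 ± 0.15 (SE, limma adjusted p = 0.522). Further FBXW7 probe sets differed by 0.63 and 0.62 with no overlap, and the dimmest by -0.07 with overlap. VDAC2, a channel of the outer mitochondrial membrane that binds BAK1, read 13.61 and 13.76 in sh-ACTL6A, against 13.91 and 13.93 in scramble. Its difference was -0.24 ± 0.09 (SE, limma adjusted p = 0.862). ATF4 and STAT3, transcription factors with family targets, differed by -0.14 and 0.19. Further STAT3 probe sets differed by 0.41 and 0.52, both with no overlap.

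Promoter sequence was examined because NRF2, with which the study linked ACTL6A, and FOXO factors act through short motifs. RefSeq promoters (GRCh38.p14, from 250 bases before to 50 after the start) were matched for 8 of the 10 genes, BBC3 among them and MCL1 and BCL2L2 not. Both strands were searched. The antioxidant response core TGACNNNGC, bound by NRF2, was found in 1 of 8 member promoters, that of BAX, and in 13.3% of all promoters. The FOXO core GTAAACA was found in 1 of 8, that of BCL2L11, and in 3.42% of all. The GC box GGGCGG was found in 6 of 8 and in 45.0% of all. The cAMP response element TGACGTCA and the TATA box TATAAA were found in 0 of 8, and in 1.85% and 11.5% of all. GC content ran from 48% (BBC3) to 78% (BID) in member promoters, against a median of 58.7% over all promoters. The response core and the cAMP element share their first letters, TGAC. The windows below, from the effector and the BH3-only genes described above, carry the motif in capitals on the gene's own strand.
BAX, chr19:48954776-48954805, plus strand, response core beginning at -89 from the start: tgcggtcacgTGACCCGGCggcgctgcggg
BCL2L11, chr2:111120680-111120709, plus strand, FOXO core beginning at -223: gagttactccgGTAAACAcgccagggacgg
PMAIP1, chr18:59899890-59899919, plus strand, GC box beginning at -94: gggcggggacagGGGCGGggacaggggcgg
The 30 bases of PMAIP1 hold the GC box more than once. These matches describe the letters only.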

How the data were processed

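Biotin-labelled cRNA of 4 samples was hybridised to single-colour Affymetrix arrays. The authors deposited log2 signals, 1 value per array for each of 54675 probe sets. MAS5, which summarises each array alone, is named in the notes of the submitters, with no version given in the sources used here. Linear signal had a mean of 500.0 on all 4 arrays once 2% was trimmed at either end, and values were used as deposited. A single gene symbol stood in the platform annotation for 41091 of 54613 non-control probe sets. Each gene was represented by its brightest probe set and tested if its mean log2 signal reached 5.63, the 50th percentile over non-control probe sets.

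Scramble was subtracted from sh-ACTL6A, and differences were tested 2-sided with limma 3.58.1 in R 4.3.3 (lmFit, eBayes with intensity trend, 7.65 degrees of freedom). Benjamini-Hochberg adjustment ran over 12286 genes, and in a second fit over 54613 probe sets. The number of arrays limits the precision. The fit was tested on simulated data. The members and the 7 companion lists were chosen with earlier results of these data known. All members were named, and from each list up to 4 genes by the smallest unadjusted p, with their further probe sets above the signal threshold. Of the epithelial list all 5 were named. Of the marker lists, epithelial genes had 5 tested (median -0.12), leukocyte genes 0, and fibroblast and endothelial genes 3 (median -0.08), none past the threshold. The alternatives were 14 planned settings and 2 added after seeing the data.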

Additional observations from a re-analysis of the deposited data

How the results depend on the processing

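The ACTL6A difference lay between -1.64 and -1.60 with all 4 arrays and between -1.71 and -1.55 with 1 array left out. It missed the threshold after quantile normalization (-1.64, limma adjusted p = 0.0520), with no filter (-1.63, 0.0797), without the intensity trend (-1.63, 0.556), with the methods' t-test (-1.63, 0.844) and with every probe set tested (-1.63, 0.281). In those 5 settings 0 genes were called lower. Leaving out scramble replicate 1 (adjusted p = 0.9996) or 2 (0.567) also ended the call. With 1 array left out, 0 to 141 genes were called higher and 0 to 260 lower, and 0 to 1 members were called. Differences of the members ranged, with 1 array left out, between 0.19 and 0.82 for BAX, -0.72 and -0.11 for BCL2L1, -0.046 and 0.42 for MCL1, -0.31 and 0.10 for BCL2L2, and -0.31 and 0.47 for BAK1, which was 0.08 with all arrays. BAK1 was -0.06 without sh-ACTL6A replicate 1. With the mean of probe sets above the threshold, an alternative chosen after seeing the data, BCL2 was 0.16, BCL2L1 -0.11 and the guardian minus BH3-only balance -0.080. The guardian minus effector balance lay between -0.46 and -0.21 with all arrays and between -0.69 and -0.15 with 1 left out. The guardian minus BH3-only balance lay between -0.22 and -0.09 with 1 left out. With the filter at the 75th percentile BCL2, BAX and BAK1 were not tested and the effector balance had no value. The other settings with all arrays kept each member's direction and left it uncalled. The replicate numbers are shared by the groups, but the labels tie them to nothing else. With the replicate number as a block 0 genes were higher and 2 lower, ACTL6A was called (adjusted p = 0.00704) and 0 members were called. Across 12286 genes, the replicate differences of both groups had a Pearson's r of 0.056. The causes of these changes were not tested.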
